A study of Mus musculus with 24 samples.

Results

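Cish, Socs1, Socs2 and Socs3 are the 4 genes of the suppressor of cytokine signalling family that are switched on by cytokine receptors and then restrain them. They were taken by symbol from a table of 15737 mouse genes, each symbol matched 1 row, and all 4 passed the filter on low values that left 12936 genes for testing. The table comes from bone marrow-derived basophils of TTP-KO mice, which lack the RNA-binding protein tristetraprolin (TTP, gene Zfp36), and of wild-type (WT) mice. In both genotypes marrow was grown in IL-3, loaded with IgE against the hapten TNP and with the uridine analogue 4-thiouridine (s4U), enriched for CD49b-positive cells on magnetic beads, and given TNP-coupled ovalbumin with s4U for 1.5 h. Antigen and s4U were then washed away, and RNA was taken at 0, 1, 2 or 4 h. The 8 groups were TTP-KO (KO below) and WT at each of these times, with 3 libraries each, 24 in all, and the study asked how the loss of TTP affects mRNA stability after this stimulus. No unstimulated cells were analysed here, so 0 h is already a stimulated state. The labels give no age, sex or knockout allele, and they do not say whether IL-3 was present after the wash. Whether the 3 libraries of a group are separate animals or cultures is not stated, and the p-values cover no more than the scatter among them, which may be technical.

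Proteins of this family carry an SH2 domain, which binds phosphorylated tyrosines on receptors or on Janus kinases (JAKs), and a SOCS box, which brings in a ubiquitin ligase. Cytokines such as IL-3 and IL-4 activate JAKs and the STAT transcription factors, STATs switch on the family's genes, and the proteins shut the same pathway down, a negative feedback loop. CIS (gene Cish) and SOCS2 act mainly by occupying phosphorylated receptor sites and are known as targets of STAT5, the main STAT downstream of IL-3. SOCS1 and SOCS3 also hold a short kinase inhibitory region that blocks JAKs directly, with SOCS1 best known for restraining interferon and IL-4 signals and SOCS3 for restraining receptors that use gp130, such as that of IL-6. TTP binds AU-rich motifs in the 3' untranslated region (3' UTR) of mRNAs and promotes their decay.

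The TTP motif was looked for in the sense strand of the 3' UTRs, because it is the sequence that the missing protein is known to bind. With the core motif TATTTAT (TTATTTATT is its longer form), the annotated 3' UTR of Cish (1087 bases, chromosome 9) held 3 overlapping copies between bases 484 and 498, and 2 of the longer form. The 3' UTR of Socs3 (1474 bases, chromosome 11) held 2 copies between bases 1397 and 1409, that of Socs2 (1163 bases, chromosome 10) held 1 between bases 574 and 580, and that of Socs1 (1993 bases, chromosome 16) held 0. The sites are shown with their flanks, with the bases of the TATTTAT copies in capitals.
Cish: tatacagTATTTATTTATTTATtctccttg
Socs2: gaccatgcttgTATTTATccctcgtcttat
Socs3: tgcacataTATTTATATTTATactcagaaa
Of 15165 genes of the table with an annotated 3' UTR, 27.9% held at least 1 copy, 9.89% at least 2 and 3.80% at least 3. Among the 3498 of these with 3' UTRs of 1000 to 2000 bases, the shares were 33.0%, 10.1% and 2.83%. These counts describe letters in the GENCODE M21 annotation of 1 transcript per gene, and no binding was measured.

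Libraries held 8839260 to 25372890 reads, and the fewest were in libraries B and C of KO at 4 h. The reads are tags from the 3' ends of mRNAs, and levels are given as CPM, read counts brought to a common library total and scaled between libraries with TMM factors, in the order of libraries A, B and C. Reads per library ran from 4910 to 15484.5 for Cish, from 2418.5 to 7206 for Socs1, from 501 to 1761.67 for Socs2 and from 1737 to 11900 for Socs3. Counting error alone, worked out from the mean reads of a group, came to at most 3.70% (Socs2). The coefficient of variation (SD over mean) among the 3 libraries of a group reached 19.1% for Cish, 23.2% for Socs1, 40.1% for Socs2 and 16.3% for Socs3. Zfp36 itself still gave reads in KO. Its libraries ranged from 158 to 210.0 CPM in KO and 219 to 269 CPM in WT at 0 h, from 36.0 to 58.5 CPM in KO and 104 to 147 CPM in WT at 1 h, from 27.1 to 51.1 CPM in KO and 73.3 to 78.8 CPM in WT at 2 h, and from 22.4 to 62.1 CPM in KO and 58.4 to 78.2 CPM in WT at 4 h. It averaged 185 ± 26.2 CPM in KO and 237 ± 27.8 CPM in WT at 0 h (log2 change -0.36, adjusted p = 0.796), and log2 changes at 1, 2 and 4 h were -1.45, -0.92 and -0.87 (adjusted p = 0.000116, 0.0652 and 0.0422, edgeR). Which exons the knockout removes is not stated, and tags of the 3' end need not fall in them, so these reads are no check of the genotype labels. Basophil markers were present throughout: the 14 listed genes summed to 36808 to 57354 CPM per library. The mean sum fell from 53909 to 41404 CPM in KO and from 54944 to 37943 CPM in WT between 0 and 4 h. KO lay above WT without overlap at 1 h (56935 to 57354 and 53336 to 55479 CPM) and at 2 h (50675 to 53782 and 44863 to 46777 CPM). This list holds Il4, which was called higher in KO at both of these times, as given below. A list of monocyte and macrophage markers had higher summed levels in KO at every time, with 19 of 20 genes analysed here and summed levels of 2840 to 2902 CPM in KO and 1293 to 1465 CPM in WT at 0 h, and of 1530 to 1917 CPM in KO and 863 to 889 CPM in WT at 4 h. Of these 19 genes 10, 8, 9 and 8 were called at 0, 1, 2 and 4 h, all of them higher in KO. Csf1r, Adgre1 and Cd68 gave reads in all 24 libraries. Dendritic and B cell markers summed to 583 to 632 CPM in KO and 339 to 420.0 CPM in WT at 0 h, and mast cell markers to 135 to 159 CPM in KO and 238 to 257 CPM in WT.

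Across genotypes, 1 difference among the 4 genes passed the test: Socs2 was higher in KO at 4 h. A call means a p under 0.05 after Benjamini-Hochberg adjustment over all 12936 genes, by edgeR's quasi-likelihood test on all 24 libraries. Between KO and WT, 0 of the 4 genes were called at 0 h, where 0.526% of all genes were, 0 of 4 at 1 h against 0.502% of all genes, 0 of 4 at 2 h against 0.518%, and 1 of 4 at 4 h against 1.82%. At an unadjusted p under 0.05 the numbers were 1, 2, 1 and 3 of 4, where 6.96%, 7.08%, 7.29% and 11.8% of all genes lay under it. DESeq2 called 0, 0, 0 and 3 of 4, against 1.73%, 1.58%, 1.9% and 3.97% of the genes it gave an adjusted p. Against 0 h, 2 of 4 were called at 1 h in KO (2.74% of all genes) and 2 of 4 in WT (2.33%), 1 of 4 at 2 h in KO (9.89%) and 2 of 4 in WT (10%), and 3 of 4 at 4 h in KO (18.1%) and 2 of 4 in WT (16.7%). The plot of levels by library shows the course of each gene.

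**Figure D1:**
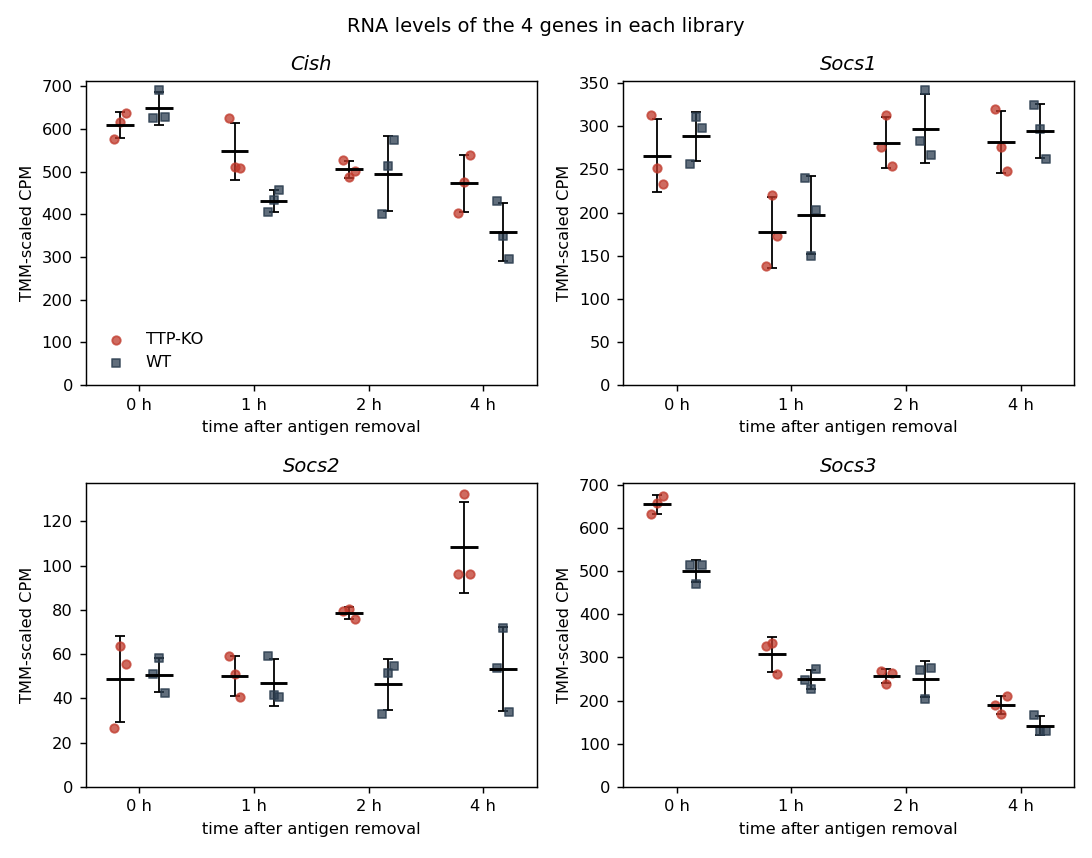
RNA level in TMM-scaled CPM (linear axis from 0, a scale per gene) of each library at 0, 1, 2 and 4 h after antigen removal, TTP-KO as circles and WT as squares, with the mean and SD of 3 libraries as bars. Socs3 was highest at 0 h in both genotypes, Socs1 was lowest at 1 h, Cish was lowest in WT at 4 h, and Socs2 in KO stood at 96.2 to 132 CPM at 4 h, above the 33.9 to 71.8 CPM of WT.

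Socs2 (ENSMUSG00000020027), the receptor-binding member best known for limiting growth hormone signals, climbed in KO late after antigen removal, while in WT no change from 0 h passed. At 4 h it stood at 96.2, 132 and 96.2 CPM in KO, against 53.5, 71.8 and 33.9 CPM in WT. Every KO library lay above every WT library. With so few libraries per group such a gap can arise by chance, and the share of all tested genes that show one is not given. Here and below, a gap or an overlap describes the libraries and is not a test of a difference. The fitted difference was 2.04-fold (log2 1.03 ± 0.27, SE; 95% interval 0.49 to 1.56; adjusted p = 0.0277, edgeR).

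At 2 h the levels were 79.4, 80.6 and 75.7 CPM in KO and 33.0, 51.2 and 54.6 CPM in WT, again without overlap, but the difference did not pass over all genes (log2 0.76 ± 0.27, adjusted p = 0.327, edgeR). At 0 h the genotypes overlapped, with 26.6, 63.7 and 55.4 CPM in KO and 51.2, 58.0 and 42.5 CPM in WT. They overlapped at 1 h too, with 58.9, 50.9 and 40.7 CPM in KO and 59.3, 41.6 and 40.5 CPM in WT. KO library A at 0 h was the lowest of all 24, and the coefficient of variation of its group, 40.1%, was the highest of the 8 groups.

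Within KO, Socs2 averaged 108 ± 20.8 CPM at 4 h and 48.6 ± 19.5 CPM at 0 h (SD, n = 3 each), a rise of 2.23-fold (log2 1.16 ± 0.27, adjusted p = 0.00101, edgeR). The change at 2 h did not pass (log2 0.69 ± 0.27, adjusted p = 0.0966, edgeR), though it passed with no filter on low counts (0.69, adjusted p = 0.0447) and with library totals in place of TMM factors (0.90, adjusted p = 0.0165). Within WT the log2 changes at 1, 2 and 4 h were -0.10, -0.13 and 0.07, with a 95% interval at 4 h of -0.46 to 0.60. The genotypes' changes from 0 to 4 h differed by 1.09 ± 0.38 on the log2 scale, which did not pass either (adjusted p = 0.343, edgeR), so the rise is not shown to be particular to KO.

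The call at 4 h hung on single libraries. It was lost without WT 4 h A (log2 1.04, adjusted p = 0.0598), without WT 4 h C (0.79, adjusted p = 0.192) or without KO 4 h B (0.86, adjusted p = 0.179), and when the fit held only the 6 libraries compared (1.04, adjusted p = 0.148, edgeR). With both of the smallest libraries (B and C of KO at 4 h) left out, KO at 4 h was a single library, assumed to vary like the other groups, and the log2 difference was 0.84 (adjusted p = 0.311, edgeR). Macrophage markers were also higher in KO at 4 h, as given above. At 4 h neutrophil markers summed to 3418 to 3646 CPM in KO and 2578 to 2837 CPM in WT (2 of 10 called, both higher), mast cell markers to 130.4 to 184 CPM in KO and 269 to 304 CPM in WT (1 of 6 called, lower), and dendritic and B cell markers to 391.9 to 448 CPM in KO and 273 to 348 CPM in WT (1 of 10 called, higher). The neutrophil sums lay the other way at 0 h, at 3827 to 4164 CPM in KO and 4564 to 4959 CPM in WT (1 of 10 called, lower). The part of these markers in the Socs2 difference was not tested; in bulk RNA, a change in the cells present and a change in RNA per cell cannot be told apart.

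Cish (ENSMUSG00000032578), which encodes CIS and is among the STAT5 targets that IL-3 induces, fell after antigen removal in WT, and in KO its decline passed at 4 h but not earlier. Right at the end of stimulation the genotypes overlapped, with 576, 616 and 636 CPM in KO and 625, 692 and 627 CPM in WT. At 1 h it stood at 625, 511 and 508 CPM in KO, against 404, 434 and 457 CPM in WT. The groups did not overlap at 1 h, but the difference did not pass (log2 0.34 ± 0.13, adjusted p = 0.49, edgeR).

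At 2 h the libraries held 527, 488 and 500.3 CPM in KO and 400.2, 513 and 573 CPM in WT. The KO libraries lay inside the WT range there, and the fitted log2 difference was 0.03 ± 0.13. At 4 h the values were 403, 475 and 538 CPM in KO and 431, 349 and 295 CPM in WT. Only the lowest KO library and the highest WT library crossed at 4 h, and the difference of 1.32-fold did not pass (log2 0.40 ± 0.13, 95% interval 0.13 to 0.66, adjusted p = 0.127, edgeR). It did pass by DESeq2 (0.44, adjusted p = 0.0279), and by edgeR without WT 4 h A (0.56, adjusted p = 0.0231) or without KO 4 h A (0.51, adjusted p = 0.017).

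Within WT, Cish was called lower than at 0 h at every later time, with log2 changes of -0.59 ± 0.13 at 1 h (adjusted p = 0.00432), -0.39 ± 0.13 at 2 h (adjusted p = 0.0478) and, with an adjusted p of 1.56e-06, -0.85 ± 0.13 at 4 h (edgeR). The mean at 4 h was 55.3% of that at 0 h by the fit. This share depends on the scaling. With library totals in place of TMM factors, the log2 change at 4 h was -0.53, and -0.91 relative to the median of all genes. Within KO the log2 changes at 1 and 2 h were -0.15 and -0.27 and did not pass, and that at 4 h was -0.37 ± 0.13 (adjusted p = 0.0412, edgeR), 77.5% of 0 h.

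Neither the 4 h call in KO nor the 2 h call in WT held throughout. The KO call at 4 h was lost with DESeq2 (log2 -0.33, adjusted p = 0.0543), with only the 6 libraries compared (-0.37, adjusted p = 0.0524), and without KO 0 h B, KO 0 h C, KO 4 h A or KO 4 h B (-0.24 to -0.36, adjusted p = 0.0886 to 0.236). With library totals in place of TMM factors it came to 0.00, on a scale where the median of all genes shifted upward by 0.37, and relative to that median it was -0.45. The WT call at 2 h was lost with library totals (-0.14, and -0.40 relative to the median), with only the 6 libraries compared (-0.37) and in 5 of 6 fits without 1 library, that is without any of the WT 0 h libraries, WT 2 h A or WT 2 h B (-0.24 to -0.41). The difference between the genotypes' changes was 0.43 ± 0.18 to 1 h (adjusted p = 1), 0.12 to 2 h and 0.49 ± 0.18 to 4 h (adjusted p = 0.405, edgeR) on the log2 scale, so a slower decline in KO was not shown.

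Socs3 (ENSMUSG00000053113), the JAK inhibitor that acts at gp130 receptors, had the largest fall of the 4 genes, in both genotypes. At 0 h it stood at 632, 659 and 675 CPM in KO, against 514, 470.4 and 515 CPM in WT. All KO libraries lay above all WT libraries, yet this difference of 1.31-fold did not pass over all genes (log2 0.39 ± 0.14, adjusted p = 0.378, edgeR). It passed where only these 6 libraries entered the fit (0.40, adjusted p = 0.026).

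At 1 h the values were 327, 333 and 261 CPM in KO and 247, 228 and 273 CPM in WT, and the ranges overlapped through KO library C. At 2 h they were 268, 238 and 263 CPM in KO and 271, 203 and 276 CPM in WT, with the KO values inside the WT range. At 4 h they were 191, 168 and 211 CPM in KO, against 167, 129.8 and 129 CPM in WT. The groups at 4 h were apart by a narrow gap, between KO library B and WT library A.

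The KO over WT log2 differences were 0.30 ± 0.14 at 1 h, 0.04 ± 0.14 at 2 h and 0.42 ± 0.14 at 4 h, and none passed (adjusted p = 0.64, 1 and 0.116, edgeR). That at 4 h passed by DESeq2 (0.46, adjusted p = 0.0131) and without WT 4 h A (0.56, adjusted p = 0.0362). From 0 h, Socs3 gave log2 changes of -1.09, -1.35 and -1.79 at 1, 2 and 4 h in KO, and of -1.004, -0.999 and -1.82 in WT. All 6 changes were called, the weakest at an adjusted p of 1.01e-06 (edgeR), and in every alternative setting. At 4 h the fitted level was 29.0% of the 0 h level in KO and 28.4% in WT. These shares depend on the scaling. With library totals in place of TMM factors, the log2 changes at 4 h were -1.42 in KO and -1.49 in WT. Relative to the median of all genes on that scale, they were -1.87 and -1.88.

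Between these ends, KO averaged 307 ± 40.2 CPM at 1 h and 256 ± 16.0 CPM at 2 h, and WT 249 ± 22.9 CPM at 1 h and 250 ± 40.7 CPM at 2 h (SD, n = 3 each). No difference between the courses passed: the genotypes' changes differed by -0.09, -0.36 and 0.03 at 1, 2 and 4 h on the log2 scale (adjusted p = 1, 0.821 and 1, edgeR).

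Socs1 (ENSMUSG00000038037), the JAK inhibitor best known for restraining interferon and IL-4 signals, had its lowest levels at 1 h in both genotypes, a fall that passed in KO, and was back near its 0 h level at 2 and 4 h. At 0 h it stood at 314, 252 and 233 CPM in KO and 257, 310.3 and 299 CPM in WT. At 1 h it stood at 138, 220.1 and 173 CPM in KO and 239.7, 150.1 and 203 CPM in WT. In each genotype all 1 h libraries lay below all 0 h libraries, and at both times the genotypes overlapped.

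The fall at 1 h passed in KO (log2 -0.59 ± 0.16, adjusted p = 0.0305, edgeR) and did not pass in WT (-0.55 ± 0.16, adjusted p = 0.0561, edgeR). In KO it was lost with only the 6 libraries compared (-0.56, adjusted p = 0.0559) and without KO 0 h A, KO 1 h A or KO 1 h C (-0.43 to -0.57, adjusted p = 0.099 to 0.249). In WT it passed by DESeq2 (-0.55, adjusted p = 0.0308) and with no filter on low counts (-0.55, adjusted p = 0.0143). The difference between the genotypes' changes to 1 h was -0.04 on the log2 scale, with a 95% interval of -0.49 to 0.42.

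By 2 h the levels were 276, 313 and 254 CPM in KO and 283, 342 and 267 CPM in WT, and by 4 h they were 320.3, 276 and 249 CPM in KO and 324, 297 and 262 CPM in WT. All of these overlapped the 0 h levels, and no change at 2 or 4 h passed. With library totals in place of TMM factors Socs1 at 4 h in KO passed (log2 0.45, adjusted p = 0.0303), which is 0.00 relative to the shifted median of all genes. Against WT, KO Socs1 gave log2 differences of -0.12, -0.16, -0.08 and -0.06 at 0, 1, 2 and 4 h, none called, and the 95% interval at 4 h ran from -0.39 to 0.26.

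Differences between genotypes at each time are set side by side in the plot of KO over WT, and the courses within each genotype in the plot of changes from 0 h. KO and WT at 0 h enter every change from 0 h, so the later values within a genotype share those 3 libraries. The difference between the genotypes' changes passed for 0 of the 4 genes to 1 h (0.0618% of all genes passed), 0 of 4 to 2 h (0.0773%) and 0 of 4 to 4 h (0.193%) by edgeR. At an unadjusted p under 0.05 the numbers were 1, 1 and 2 of 4, beside 4.59%, 6.52% and 8.84% of all genes, and DESeq2 called 0, 0 and 0, beside 0.703%, 0.703% and 1.46%.

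**Figure D2:**
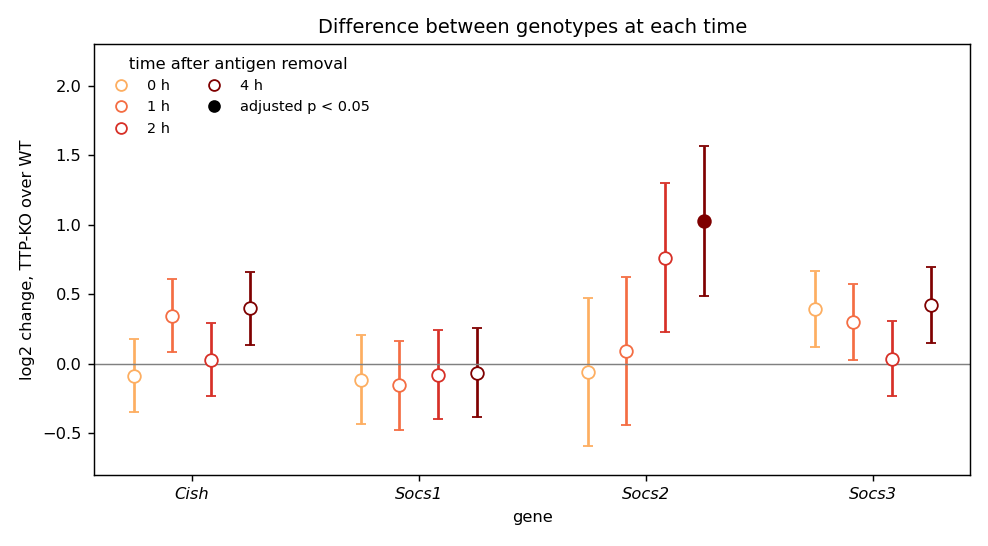
Log2 change of TTP-KO over WT (vertical axis) for the 4 genes at 0, 1, 2 and 4 h, darker for later times, with bars for the 95% interval and a filled point for adjusted p under 0.05. Socs2 at 4 h is the filled point, at 1.03, and Socs1 lies close to 0 at all 4 times.

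**Figure D3:**
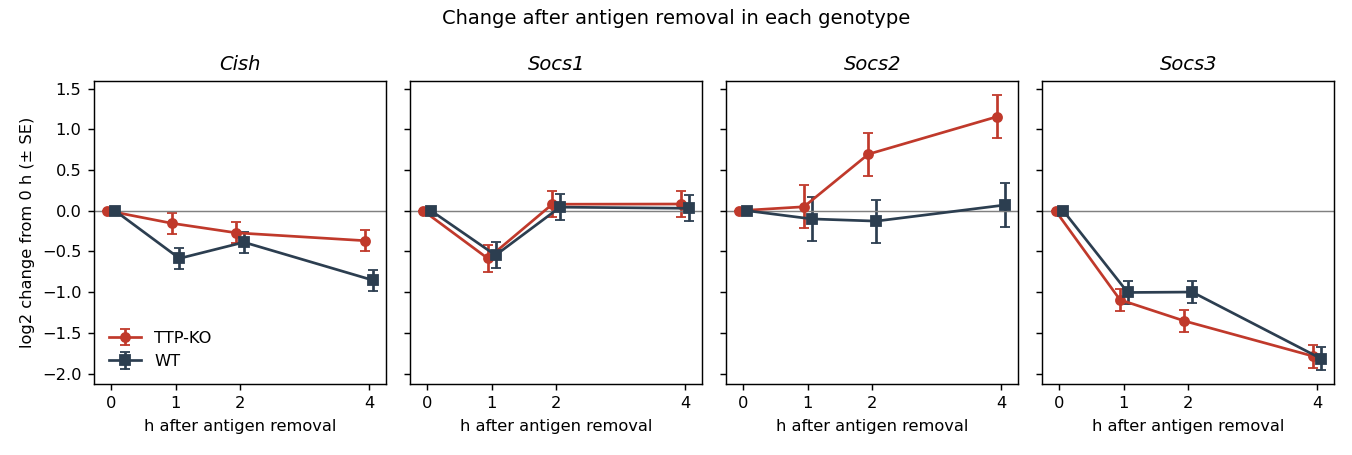
Log2 change from 0 h (vertical axis, ± SE) against hours after antigen removal for TTP-KO (circles) and WT (squares), a panel per gene. Socs3 ended at -1.79 in KO and -1.82 in WT, Cish at -0.37 in KO and -0.85 in WT, and Socs2 at 1.16 in KO and 0.07 in WT.

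Ordered by group mean, the 4 genes gave different series. For Cish the order was WT 0 h, KO 0 h, KO 1 h, KO 2 h, WT 2 h, KO 4 h, WT 1 h and WT 4 h, with means between 359 and 648 CPM, and each group overlapped the next. For Socs1 the ranges of neighbours overlapped throughout as well, with both 1 h groups at the end. Socs2 had KO 4 h and KO 2 h at the top, each clear of the next, and the other 6 groups, with means of 46.3 to 53.1 CPM, each overlapped the next. Socs3 had the widest span, 4.62-fold between the highest and the lowest group mean, with KO 0 h and WT 0 h clear of each other and of the rest, and KO 4 h and WT 4 h clear of each other below. The highest group mean was 2.34-fold the lowest for Socs2, 1.81-fold for Cish and 1.68-fold for Socs1.

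Over the 8 group means of log2 CPM, Cish and Socs3 had a Pearson r of 0.91, and the other pairs lay between -0.38 and 0.28. These are descriptions over groups that share time and depth. The pair was picked for its highest r, and its falls differed in size: in KO at 4 h against 0 h, log2 -0.37 for Cish and -1.79 for Socs3. Whether the 2 genes share a regulator was not tested. Their promoters are shown because STAT5 and STAT3 are known to bind the palindrome TTCNNNGAA. It is its own reverse complement and so reads the same on both strands. The windows run from 250 bases before to 50 bases after the start site in RefSeq (GRCm38.p6), 5' to 3' on the gene's strand, with the motif in capitals. They are chr9:107296409-107296708, plus strand, for Cish and chr11:117969317-117969616, minus strand, for Socs3.
Cish: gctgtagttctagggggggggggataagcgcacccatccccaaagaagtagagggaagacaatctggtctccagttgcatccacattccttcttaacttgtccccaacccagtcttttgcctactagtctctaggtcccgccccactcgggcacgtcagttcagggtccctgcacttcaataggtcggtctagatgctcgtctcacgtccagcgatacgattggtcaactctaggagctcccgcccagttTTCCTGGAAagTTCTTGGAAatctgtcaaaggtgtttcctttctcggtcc
Socs3: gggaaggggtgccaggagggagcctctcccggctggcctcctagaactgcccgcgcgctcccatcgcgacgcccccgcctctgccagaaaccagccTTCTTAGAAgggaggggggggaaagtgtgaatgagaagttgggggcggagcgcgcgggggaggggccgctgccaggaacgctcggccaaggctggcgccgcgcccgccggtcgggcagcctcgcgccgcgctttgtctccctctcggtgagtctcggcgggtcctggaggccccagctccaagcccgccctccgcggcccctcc
The Cish window held 2 copies, TTCCTGGAA beginning at the annotated start base and TTCTTGGAA 11 bases further on. The Socs3 window held 1 copy, TTCTTAGAA, 154 bases before the start, and the Socs1 window (chr16:10785487-10785786, minus strand) held 0. Of 32851 promoters of this length, 8.30% held at least 1 copy and 0.457% at least 2. Among the 4 genes, 3 had a promoter in the table used, and Socs2 was not matched. A copy here is a match of letters and not a measured binding site.

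By the same measure, the genes most like each member were taken from 7078 genes with a mean of at least 10 CPM, 3 per member, over 8 group means. Nearest to Socs3 were Nfkbiz (r = 0.99), which encodes a nuclear IkB protein, Dusp1 (0.98), a MAP kinase phosphatase, and Hilpda (0.98), a lipid droplet protein. At 4 h against 0 h, log2 changes of Nfkbiz were -1.82 in KO and -1.68 in WT, and those of Dusp1 were -3.24 in KO and -3.27 in WT. Nearest to Socs1 were Cd69 (0.97), an early activation marker, Snapin (0.97) and Flt3l (0.96). Nearest to Cish were Serpinb6a (0.97), Ano6 (0.96) and Park7 (0.96), and nearest to Socs2 were Sec61g (0.95), a subunit of the translocon, Rwdd1 (0.94) and Ywhae (0.93). The 12 genes were chosen on means that include every group, so their differences between groups are in part fixed by that choice.

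Around the 4 genes, calls between genotypes were counted in lists of ligands, receptors, kinases, inhibitors, SOCS box partners and STAT targets, and differences between the lists were not tested. Lists of 116 JAK-STAT genes were used, of which 114 were in the table and 110 were tested. All lists were chosen with earlier results of these data known, so a share above that of all genes is no test of a list. Called higher in KO were 4, 7, 6 and 6 of the 110 at 0, 1, 2 and 4 h and called lower were 1, 1, 1 and 3, which is 4.55%, 7.27%, 6.36% and 8.18% against the shares of all genes given above. The median log2 difference of the lists' genes was 0.04, 0.04, 0.12 and 0.04, beside 0.00, -0.01, 0.00 and 0.00 over all genes. Called genes named here outside the rule for named genes, which are Asb2, Ifngr2, Jak1, Ptpn6, Pim3, Cdkn1a and Arg1, were chosen after their values were seen. Socs4, Socs5, Socs6 and Socs7, which were not called, are named outside that rule as well.

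**Figure D4:**
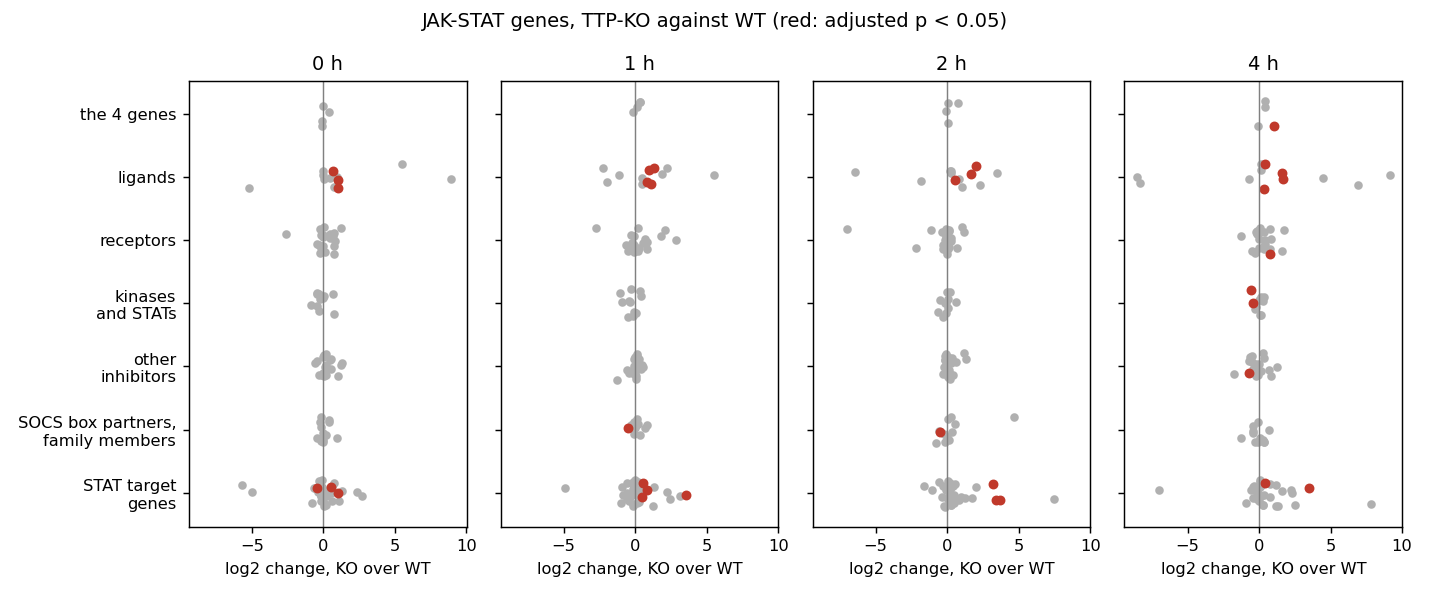
Log2 change of TTP-KO over WT (horizontal axis) of each tested gene of the JAK-STAT lists, a row per list and a panel per time, with red points for adjusted p under 0.05 and grey for the rest. The red points of the ligand row lie to the right of 0 at all 4 times, and grey points beyond 5 on either side, such as Il3, did not pass the test.

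Among the ligands, 12 were tested and 3, 4, 3 and 4 were called in KO against WT at 0, 1, 2 and 4 h, all of them higher. These are shares of 25%, 33.3%, 25% and 33.3%, beside 0.526%, 0.502%, 0.518% and 1.82% of all genes. The ligands were listed with earlier results of these data known, so the gap between these shares tests nothing. Il4, the cytokine whose receptor SOCS1 restrains, averaged 3247 ± 513 CPM in KO and 3181 ± 183 CPM in WT at 0 h and overlapped. At 2 h it stood at 5321 ± 403 CPM in KO and 1668 ± 227 CPM in WT (log2 1.67 ± 0.12, adjusted p = 1.81e-15, edgeR).

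Il13, which shares a receptor with IL-4, was at 353 ± 27.4 CPM in KO and 87.6 ± 31.6 CPM in WT at 2 h (log2 2.01 ± 0.20, adjusted p = 5.55e-10, edgeR), and was called at 1 and 4 h as well. Il6, a gp130 cytokine and so a ligand of the pathway that SOCS3 dampens, was higher in KO at all 4 times, by 0.66, 1.11, 0.58 and 0.36 on the log2 scale (adjusted p from 9.98e-14 to 0.0114, edgeR). Osm, another gp130 cytokine, was at 5666 ± 108 CPM in KO and 2793 ± 357 CPM in WT at 0 h (log2 1.02 ± 0.11, adjusted p = 8.99e-09), was called at 1 and 4 h too, and was not called at 2 h (0.27, adjusted p = 0.517, edgeR).

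Lif, a further gp130 cytokine, was called at 0 h with 165 ± 11.2 CPM in KO and 80.4 ± 6.79 CPM in WT (log2 1.03, adjusted p = 0.000776, edgeR). Csf2, which signals through the chain it shares with IL-3, averaged at most 16.1 CPM in any group, and Il3 at most 2.76 CPM. Neither passed at any time. Macrophage markers were higher in KO at every time, as given above. Their part in the differences of Il6, Osm, Lif and the other list genes was not tested.

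Of 23 receptor genes tested, 0 were called at 0, 1 and 2 h and 1 at 4 h (4.35%, against 1.82% of all genes), Ifngr2, a chain of the interferon gamma receptor, at 82.3 ± 7.33 CPM in KO and 47.4 ± 2.10 CPM in WT at 4 h (log2 0.80, adjusted p = 0.0248, edgeR). The IL-3 receptor chains Il3ra, Csf2rb and Csf2rb2 did not pass at any time, and Csf2rb at 4 h was at 5685 ± 1487 CPM in KO and 4195 ± 199 CPM in WT (log2 0.44, adjusted p = 0.0634, edgeR). Il4ra, the IL-4 receptor chain, was at 84.8 ± 13.7 CPM in KO and 48.8 ± 16.8 CPM in WT at 4 h and did not pass (log2 0.80, adjusted p = 0.105, edgeR).

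Of 11 kinases and STATs, 0 were called at 0, 1 and 2 h and 2 at 4 h (18.2%, against 1.82% of all genes), both lower in KO. Jak2, the kinase of the IL-3 receptor, was at 123 ± 23.6 CPM in KO and 182 ± 27.3 CPM in WT (log2 -0.56, adjusted p = 0.0366), and Jak1, a kinase of the gp130 and IL-4 receptors, at 496 ± 86.7 CPM in KO and 678 ± 23.9 CPM in WT (log2 -0.45, adjusted p = 0.0445, edgeR). The JAK-STAT genes called at 4 h came to 5 to 12 without 1 library. Whether Jak1, Jak2 or Ifngr2 stayed among them is not given. Stat5a, Stat5b and Stat6, the factors downstream of IL-3 and IL-4, did not pass at any time, with log2 differences from -0.53 to 0.72.

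Of the 20 other inhibitors, 0 were called at 0, 1 and 2 h and 1 at 4 h (5%, against 1.82% of all genes). It was Ptpn6, the phosphatase SHP-1, lower in KO at 4 h with 140.2 ± 26.9 CPM in KO and 229.6 ± 16.7 CPM in WT (log2 -0.71, adjusted p = 0.00622, edgeR). Of the 12 SOCS box partners and other family members, 0 were called at 0 and 4 h. At 1 and 2 h 1 was called (8.33% at both, against 0.502% and 0.518% of all genes). It was Asb2, which encodes another SOCS box protein, lower in KO (log2 -0.53 at both, adjusted p = 0.0327 and 0.0285, edgeR). Socs4, Socs5, Socs6 and Socs7 were tested and not called in any of the KO and WT comparisons.

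Of 35 STAT target genes, 3, 4, 3 and 2 were called at 0, 1, 2 and 4 h. These are shares of 8.57%, 11.4%, 8.57% and 5.71%, beside 0.526%, 0.502%, 0.518% and 1.82% of all genes. This list too was chosen with earlier results known, so these shares are no test of it. Pim1, a survival kinase induced by STAT5, was at 823 ± 77.3 CPM in KO and 577 ± 71.1 CPM in WT at 0 h (log2 0.51, adjusted p = 0.00735), and Ccnd2, a cyclin, was lower in KO there (log2 -0.44, adjusted p = 0.00516, edgeR). Osm, listed here too, passed at 0, 1 and 4 h, Pim3 and Cdkn1a passed at 1 h (log2 0.55 and 0.45), and Bcl2l1, the survival gene Bcl-xL, passed at no time (log2 -0.04 to -0.17).

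Further called targets were Arg1 at 2 and 4 h and Saa3 at 2 h, at log2 3.24 to 3.51, and both are known in macrophages. The macrophage markers were higher in KO at the same times, with summed levels of 2012 to 2392 CPM in KO and 909 to 1002 CPM in WT at 2 h and those given above at 4 h, and their part in these calls was not tested.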

How the data were processed

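RNA was read in 24 libraries, 3 in each of 8 groups of genotype and time. Per the submitters' processing notes the build was GRCm39, and the tools, whose roles are not given, were SAMtools, STAR 2.7.10a and cutadapt 3.5. The deposited table holds the authors' expected counts of reads, not normalized, of which 12.8% were not whole, so they were rounded. Its columns carry the letters A, B and C and the labels the numbers 1 to 3, which nothing ties together, so libraries are named by letter. A further 144 columns, which hold the estimates of the labelled share in each library, were not used, because columns that match a group and no single sample were limited to 1 measure per group, the read count, and no half-lives are given.

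In R 4.3.3, edgeR 4.0.16 scaled libraries with TMM factors, filtered genes with filterByExpr and fitted its quasi-likelihood model to all 24 libraries, with 8 group means. The 13 contrasts were adjusted with Benjamini-Hochberg over 12936 genes. The fit was tested on simulated data. Alternatives were DESeq2 1.42.0, library totals, no filter, only the groups compared, a block by letter, and leaving out libraries. A rule named the 4 genes, Zfp36, 16 fixed pathway genes, the 8 pathway genes of smallest p, and 3 genes of like course per member. The 4 genes and all lists were chosen with earlier results of these data known. A pathway gene counted among those called is not reported here by name.

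Library pairs of 1 group differed beyond sampling noise (chi-square per degree of freedom 29.5 to 77.2 over 24 pairs). Sequences are from RefSeq promoters (GRCm38.p6) and GENCODE M21 transcripts, matched by symbol or gene ID, not from the build of the counts.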

Additional observations from a re-analysis of the deposited data

Results flagged for a closer look

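For the 4 genes, no result met a rule for a closer look. Around them, 4 pathway genes changed differently over time in the 2 genotypes by the test of the difference itself (edgeR, adjusted over all genes). Il4 changed by 0.93 more on the log2 scale in KO than in WT to 1 h (adjusted p = 0.00235), by 1.64 to 2 h (adjusted p = 2.28e-09) and by 1.65 to 4 h (adjusted p = 2.15e-09). It averaged 6212 ± 463 CPM in KO and 3195 ± 634 CPM in WT at 1 h (SD, n = 3 each). For Il13 the difference in change to 2 h was 1.55 (adjusted p = 0.00263). Osm, at 1398 ± 143 CPM in KO and 1161 ± 178 CPM in WT at 2 h, had a difference in change to 2 h of -0.75 (adjusted p = 0.0259). Pim1, at 1130 ± 57.5 CPM in KO and 1361 ± 88.3 CPM in WT at 2 h, had one of -0.78 (adjusted p = 0.0149).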

How the results depend on the processing

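Socs3 kept its direction and its calls in all 6 changes from 0 h under every alternative run, as did Socs2 at 4 h against 0 h in KO and Cish at 1 and 4 h against 0 h in WT. Log2 values that changed sign or crossed the threshold follow, and the cause of these changes was not tested. With library totals in place of TMM factors, KO over WT at 2 h was -0.022 for Cish and -0.021 for Socs3, Socs2 at 2 h against 0 h was 0.90 in KO and 0.12 in WT, Cish was 0.0045 in KO at 4 h and -0.14 in WT at 2 h, Socs1 was 0.45 in KO at 4 h, and the genotypes' changes to 2 h differed by -0.0096 for Socs1. With no filter, Socs2 at 2 h in KO was 0.69 and Socs1 at 1 h in WT -0.55, both past the threshold. DESeq2 moved Cish (0.44) and Socs3 (0.46) in KO over WT at 4 h and Socs1 in WT at 1 h (-0.55) past it, and Cish in KO at 4 h (-0.33) short of it. With only the groups compared, Socs3 in KO over WT at 0 h (0.40) passed, and Socs2 in KO over WT at 4 h (1.04), Socs1 in KO at 1 h (-0.56), Cish in KO at 4 h (-0.37) and Cish in WT at 2 h (-0.37) did not. Without both smallest KO 4 h libraries, which leaves a single KO library at 4 h, assumed to vary like the other groups, KO over WT at 4 h was 0.84 for Socs2, not called, and 0.11 for Socs1.

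No pairing of KO with WT libraries by the letters A to C was seen within a time. Over 12 pairs with the same letter and time, 0 correlations exceeded 0.1 (-0.0574 to 0.0513), and 3 were the best of their library. Whether a letter ties libraries across times was not checked in this way. A replicate block by letter moved Socs1 in WT at 1 h past the threshold (-0.55) and changed no other call of the 4 genes.

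Leaving out 1 library at a time, called values and those near the threshold ranged as follows. KO over WT at 4 h was 0.28 to 0.56 for Cish, 0.79 to 1.31 for Socs2 and 0.34 to 0.56 for Socs3. In KO, Socs1 at 1 h was -0.77 to -0.43, Socs2 at 2 h 0.40 to 0.94 and Cish at 4 h -0.46 to -0.24. In WT, Socs1 at 1 h was -0.71 to -0.38 and Cish at 2 h -0.51 to -0.24. Uncalled values that changed sign were, for Socs1, KO over WT at 1 h (-0.34 to 0.0070), 2 h (-0.16 to 0.032) and 4 h (-0.15 to 0.018), KO at 2 h (-0.0072 to 0.22) and 4 h (-0.0057 to 0.22), WT at 2 h (-0.069 to 0.12) and 4 h (-0.049 to 0.11), and the differences in change to 1 h (-0.23 to 0.12), 2 h (-0.051 to 0.17) and 4 h (-0.035 to 0.19). For Socs2 they were KO over WT at 0 h (-0.30 to 0.24) and 1 h (-0.042 to 0.29), KO at 1 h (-0.25 to 0.29), WT at 1 h (-0.30 to 0.010), 2 h (-0.27 to 0.086) and 4 h (-0.21 to 0.31), and the difference in change to 1 h (-0.15 to 0.39). For Cish and Socs3 they were KO over WT at 2 h (-0.11 to 0.15 and -0.094 to 0.11), the difference in change to 2 h for Cish (-0.015 to 0.23), and those to 1 and 4 h for Socs3 (-0.15 to 0.015 and -0.047 to 0.17).

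Counts of all genes called in KO against WT, higher and lower, were 58 and 10 at 0 h, 52 and 13 at 1 h, 53 and 14 at 2 h, and 122 and 114 at 4 h. DESeq2 gave 130 and 92, 108 and 91, 138 and 96, and 274 and 216. Only the groups compared gave 91 and 25 at 0 h, 7 lower at 1 h, 4 lower at 2 h, and 38 and 9 at 4 h. Library totals gave 23 lower at 1 h and 31 lower at 2 h, and no filter gave 40 lower at 0 h, 31 lower at 1 h, and at 2 h 87 higher with 40 lower. With the single KO 4 h library left without both smallest, 55 were higher and 75 lower at 4 h. Without 1 library, 4 to 16 were lower at 0 h, 7 to 16 at 1 h and 8 to 29 at 2 h, and at 4 h 73 to 183 were higher and 55 to 248 lower. JAK-STAT genes called came to 3 to 7 at 0 h, 5 to 7 at 1 h, 4 to 7 at 2 h and 5 to 12 at 4 h without 1 library, 10 at 0 h with no filter, and 8 at 0 h and 3 at 4 h with only the groups compared.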
